A study of Mus musculus with 6 samples.

Results

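The transcripts described here are those of the immunoglobulin heavy variable genes, the segments that encode the antigen-binding end of the antibody heavy chain. They were chosen as every transcript feature of the array whose description holds both "immunoglobulin heavy" and "variable", which gave 106 of the 56605 features on the array. Each is a single spot carrying 1 sequence of 60 bases. Of the 106, 103 name a numbered variable gene, and these stand for 98 distinct genes in 16 variable subfamilies, because 5 genes have 2 features each. The other 3 carry only a clone name and form a group of their own. All 98 gene names occur in the RefSeq gene table of assembly GRCm38.p6, from which names but no positions were taken, and which lists 6 of the members as variable segment pseudogenes.

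Kidney cortex RNA was hybridised to 6 Agilent arrays of one colour each, 3 with samples of wild-type (WT) mice and 3 with samples of C3aR-/- mice, which lack the receptor for the complement fragment C3a. All mice were male C57BL/6 animals of the control arm: they started at 8 weeks of age on chow with 10% of its calories from fat, received vehicle where the diabetic arm received streptozotocin, and were killed 20 weeks after the induction date. The sources used here do not give how the receptor gene was inactivated, and the diabetic arm is not analysed here. The question is which transcripts differ without the receptor in non-diabetic cortex. Nothing in the labels states that the samples came from different animals, and the p-values below therefore cover only the spread between these samples.

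A heavy chain gene is assembled in developing B cells by joining 1 variable, 1 diversity (D) and 1 joining segment, after which the joined exon is transcribed with a constant region. Each B cell clone uses 1 joined variable segment, and different clones can use the same segment. Plasma cells, the antibody-secreting descendants of B cells, make the joined transcript in very large amounts. Variable segments are grouped into subfamilies by similarity of sequence, of which V1 (the J558 family) is by far the largest in the mouse. Segments in use are altered by somatic mutation and joined to other sequence, whereas the array features carry fixed sequences.

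Every numbered member lies in the heavy chain locus on chromosome 12 (build mm9), on the minus strand, between 114816899 and 117247905, and the 3 others have no position in the array files. Where within its gene each feature falls was not analysed here, except for the motifs named below. V1 holds 49 members. V5 holds 8, V2 and V3 hold 7 each, V8 holds 6, V6 holds 5, and V7, V9 and V14 hold 4 each. V4 and V10 hold 2 each, and V11, V12, V13, V15 and V16 hold 1 each.

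Because the segments resemble each other, the features do too, and the sequences bear on how far each feature reads 1 gene. A stretch of at least 20 bases is shared with another member by 58 members, 42 of them in V1, and 49 of the 58 share such stretches only within their own subfamily. Close relatives among the members the results turn on are 4 V1 features, shown here 5′ to 3′ with the 15 bases common to all of them in capitals.
Ighv1-7: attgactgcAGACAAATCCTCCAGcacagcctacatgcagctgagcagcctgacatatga
Ighv1-4: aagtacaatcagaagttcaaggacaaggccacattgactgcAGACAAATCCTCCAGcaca
Ighv1-52: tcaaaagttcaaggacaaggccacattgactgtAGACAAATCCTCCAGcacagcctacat
Ighv1-2: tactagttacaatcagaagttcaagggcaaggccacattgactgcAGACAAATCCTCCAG
They map to chr12:115776734-115776793, chr12:115725407-115725466, chr12:116383750-116383809 and chr12:115707350-115707409. Pair by pair the longest shared stretch is longer: 33 bases for Ighv1-4 with Ighv1-2, 28 for Ighv1-4 with Ighv1-7 and with Ighv1-52, 27 for Ighv1-7 with Ighv1-52, and 24 for Ighv1-7 with Ighv1-2.

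Another V1 pair covers an earlier part of the segment, with the 29 bases common to both in capitals.
Ighv1-85: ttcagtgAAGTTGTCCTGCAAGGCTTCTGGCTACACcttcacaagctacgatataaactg
Ighv1-64: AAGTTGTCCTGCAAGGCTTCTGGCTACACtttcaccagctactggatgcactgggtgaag
They lie at chr12:117238426-117238485 and chr12:116745936-116745995.

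A further 3 features reach the end of the segment where it joins a D segment. Capitals mark TATTACTGT, which encodes the conserved Tyr-Tyr-Cys at that end, and, in Ighv1-33, CACAGTG, the heptamer of the recombination signal that follows an unjoined variable segment.
Ighv14-3: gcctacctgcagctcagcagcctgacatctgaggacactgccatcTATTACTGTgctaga
Ighv1-11: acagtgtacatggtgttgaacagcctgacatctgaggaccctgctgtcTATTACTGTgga
Ighv1-33: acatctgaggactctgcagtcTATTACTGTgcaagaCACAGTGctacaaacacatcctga
Their positions are chr12:115298056-115298115, chr12:115850457-115850516 and chr12:117247846-117247905. TATTACTGT, searched on both strands, occurs in 7 members (6.60%) and in 0.150% of all array sequences of 60 bases. CACAGTG occurs in 1 member, Ighv1-33, and in 1.44% of all array sequences. The last 2 features whose levels were tested come from other subfamilies and have only the 10 capital bases as their longest stretch in common.
Ighv5-17: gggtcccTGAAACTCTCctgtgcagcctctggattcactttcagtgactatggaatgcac
Ighv10-3: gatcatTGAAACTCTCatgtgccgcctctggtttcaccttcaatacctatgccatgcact
They map to chr12:115097549-115097608 and chr12:115761848-115761907. Ighv5-17, Ighv1-11 and Ighv14-3 share no stretch of 20 bases with any other member. With features that are not members, 5 members share such a stretch: Ighv14-3, Ighv1-52, Ighv1-7, Ighv1-33 and Ighv1-37, each with 1 feature.

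Across the whole array, 56.5% to 59.3% of transcript spots were well above background, the flag the scanner software gives to a spot that stands clear of its local background, and the shares in C3aR-/- lay above those in WT. Just 1 array read the single C3ar1 feature as well above background, so the targeted gene could not be followed. All listed genes of the tissue, 6 of the proximal tubule, 5 of the podocyte and 4 of the thick limb and distal tubule, were well above background on all 6 arrays. The 3 WT arrays shared one slide and the 3 C3aR-/- arrays another, so slide and genotype cannot be told apart in any result below. In whole cortex, fewer antibody-making cells and less RNA per cell cannot be told apart either.

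Levels below are log2 processed signals relative to the 75th percentile of the same array, so that a level of -4 is far down the range. The heavy variable members were dim. Of the 106, 71 were well above background on no array and 35 on at least 1. The brightest member reached a processed signal of 98.0 on its brightest array, whereas the 75th percentile of the arrays lay between 662 and 827. For 380 of the 636 member values (59.7%) the software had put a placeholder in place of a signal too low to measure, and such values have no order.

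More members stood clear of background in WT cortex. They numbered 23, 11 and 20 on the WT arrays and 9, 8 and 8 on the C3aR-/- arrays, without overlap. WT replicate 2 was closest to the C3aR-/- arrays. By member, 22 were well above background on WT arrays only, 6 on C3aR-/- arrays only, and 7 on arrays of both genotypes. Most of the members seen on WT arrays only, 19 of the 22, were V1 genes. V1 members well above background numbered 18, 7 and 16 on the WT arrays and 3, 3 and 2 on the C3aR-/- arrays, while the 57 other members gave 5, 4 and 4 against 6, 5 and 6. These counts are descriptions, and the difference between V1 and the rest was not tested. How many of all features were seen on arrays of 1 genotype alone is not given here or below. Of the 49 V1 members, 42 share at least 20 bases with another member, so their readings need not be separate.

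**Figure D1:**
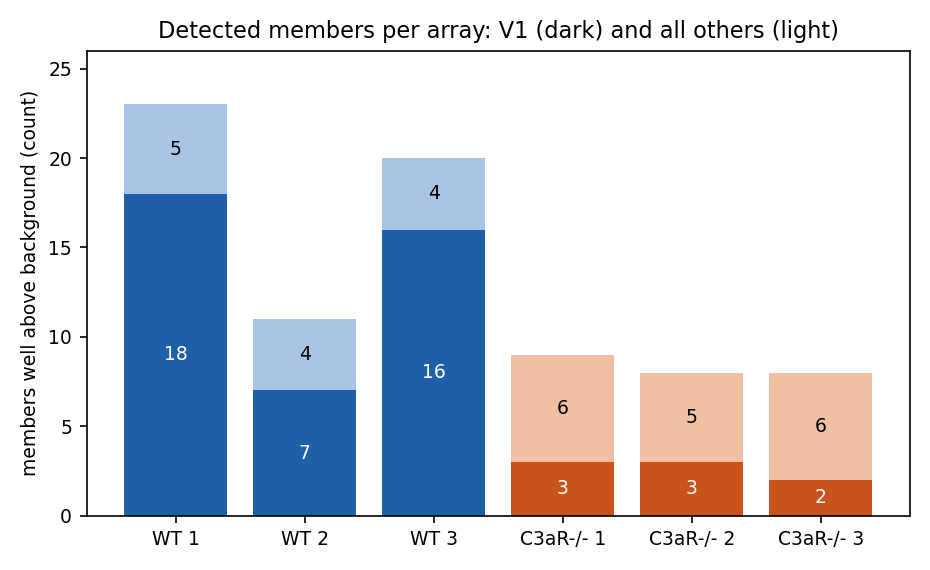
Number of heavy variable members well above background on each of the 6 arrays (vertical axis, count), with V1 members in the dark part of the bar and all others in the light part. The WT arrays hold 18, 7 and 16 V1 members and the C3aR-/- arrays hold 3, 3 and 2, whereas the light parts run from 4 to 6 on every array.

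The genotypes were compared by limma over the 30931 features that stood clear of background on every array of 1 genotype or of both, and a feature was called at an adjusted p under 0.05 (Benjamini-Hochberg). Only 8 members entered that test. Of these, 5 passed on both genotypes and 3 passed through the WT arrays alone. A member that passes only where it is bright is bound to differ, so the count of calls among the 8 is given as a description. Ighv14-3, Ighv1-52, Ighv1-4 and Ighv1-85 fell in C3aR-/- cortex, 4 of the 8, where 5.49% of all tested features were called lower. None of the 8 was called higher, where 6.18% of all tested features were. Beside such a share, a count of 0 among 8 says little about the members. None of the 8 rose at an unadjusted p under 0.05 either, a measure for which no share over all features is given. With arrays scaled to their median, 32.4% of the calls over all features were lower, against 47.0% in the scaling used here, and the same number of members was called.

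**Figure D2:**
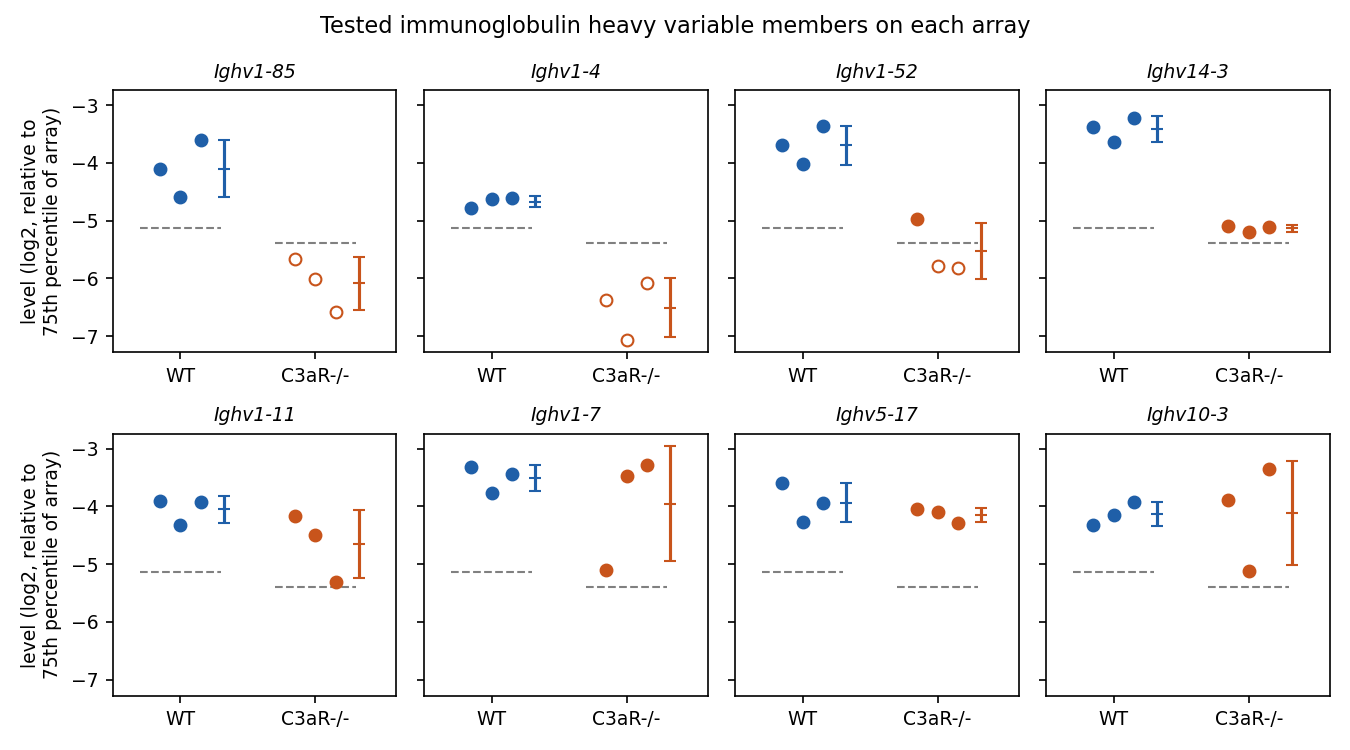
Level of the 8 tested members on each array (vertical axis, log2 processed signal minus that of the array's 75th percentile), WT in blue and C3aR-/- in orange, with filled points well above background, open points not, and bars giving mean and SD of 3 arrays. Dashed lines are the mean of the arrays' lowest signals well above background, and the upper row holds the 4 members called lower, whose genotypes do not overlap.

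Ighv14-3, of the V14 subfamily, had the highest mean level of all members in WT cortex. Its levels were -3.38, -3.65 and -3.22 on the WT arrays and -5.09, -5.20 and -5.11 on the C3aR-/- arrays. Every C3aR-/- array lay below every WT array, and the feature was well above background on all 6. The log2 difference was -1.72 (SE 0.12, limma adjusted p = 0.0031) and the level was 3.29-fold lower. The C3aR-/- levels lay just above the lowest signals well above background on those arrays, -5.28, -5.47 and -5.43. The size of the fall therefore rests on values near background. The call held without any single array, with differences from -1.84 to -1.62. A background correction by normexp, which adds an offset to dim signals, kept the call and gave a difference of -0.72.

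Ighv1-52 stood at -3.69, -4.03 and -3.36 in WT and at -4.97, -5.79 and -5.82 in C3aR-/- cortex. The genotypes did not overlap, and only C3aR-/- replicate 1 was well above background among the arrays of that genotype. The log2 difference was -1.83 (SE 0.28, limma adjusted p = 0.0192). Ighv1-52 had passed the filter through the WT arrays alone, and the size of this difference rests on values near background. A fall from its WT mean to the mean of the C3aR-/- arrays' lowest signals well above background would be 1.70 on the log2 scale. When WT replicate 1, 2 or 3 was left out, or else C3aR-/- replicate 2 or 3, the adjusted p became 0.0578, 0.0507, 0.0533, 0.0586 and 0.0697. Under normexp the difference was -0.67 and still called.

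Ighv1-85 was at -4.10, -4.58 and -3.61 on the WT arrays and at -5.67, -6.02 and -6.58 on the C3aR-/- arrays, none of which was well above background. A feature that is dim on a whole genotype has only a bound there. Set against the lowest signal that each C3aR-/- array measured as well above background, its WT level was at least 2.45-fold higher (limma adjusted p = 0.0210 for the measured difference). This floor is a rule for the array and a single feature's limit can lie higher. The call was lost without WT replicate 1 or 3 or C3aR-/- replicate 2 or 3, where the adjusted p was 0.0618, 0.0509, 0.0607 and 0.0644.

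Ighv1-4 was the dimmest of the tested members in WT cortex, at -4.77, -4.63 and -4.61, and the C3aR-/- arrays read -6.38, -7.07 and -6.08 without standing clear of background. The WT level was at least 1.65-fold higher (limma adjusted p = 0.0144 for the measured difference). Without WT replicate 2 the adjusted p was 0.0562. Under normexp Ighv1-4 and Ighv1-85 were still called lower, with differences of -0.45 and -0.60.

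The other 4 tested members did not pass the test. Ighv1-7 was at -3.33, -3.76 and -3.44 in WT and at -5.10, -3.47 and -3.28 in C3aR-/- cortex. On 2 of the 3 C3aR-/- arrays it was as bright as in WT, and the low value came from replicate 1 alone. Its log2 difference was -0.44 (95% interval -1.62 to 0.73, limma adjusted p = 0.562), and 0.13 without C3aR-/- replicate 1. Ighv1-7 thus did not pass although its sequence shares 28 and 27 bases with Ighv1-4 and Ighv1-52, which did. The difference between these features was not tested.

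Ighv1-11 had levels of -3.91, -4.32 and -3.92 in WT and -4.16, -4.50 and -5.30 in C3aR-/- cortex. The genotypes overlapped, and the difference was -0.60 (95% interval -1.33 to 0.13, limma adjusted p = 0.223). For Ighv5-17 the WT arrays read -3.60, -4.27 and -3.94 and the C3aR-/- arrays -4.05, -4.10 and -4.29. The C3aR-/- values lay inside the WT range but for the lowest one, with a difference of -0.21 (95% interval -0.64 to 0.22, limma adjusted p = 0.458).

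Ighv10-3 was the only tested member whose difference was above 0. Its levels were -4.33, -4.14 and -3.92 in WT and -3.89, -5.11 and -3.35 in C3aR-/- cortex, so that C3aR-/- held both the highest and the lowest array. The difference was 0.02 (95% interval -1.05 to 1.08, limma adjusted p = 0.984), and it turned negative under normexp (-0.05). It also turned negative without WT replicate 1 (-0.08) and without C3aR-/- replicate 1 (-0.10) or 3 (-0.37). The interval allows a change of more than 2-fold in either direction. In this set of 8, non-overlap with WT above was found for the 4 called members, and for 16.8% of all tested features.

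The median log2 difference of the 8 tested members was -1.16, or -0.66 with the members dim in C3aR-/- at their bound, beside 0.03 over all tested features. Over all 106 members without a filter on dim features it was -0.33, beside -0.08 over all features. The value over all members rests largely on placeholders: the 26 members that held one on all 6 arrays had a median difference of -0.24 although no signal was measured for them. The 19 members with no placeholder had a median of -1.06, and 15 of the 19 differences were below 0. Some of these 19 were well above background on no array, and the same count over all features was not made.

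**Figure D3:**
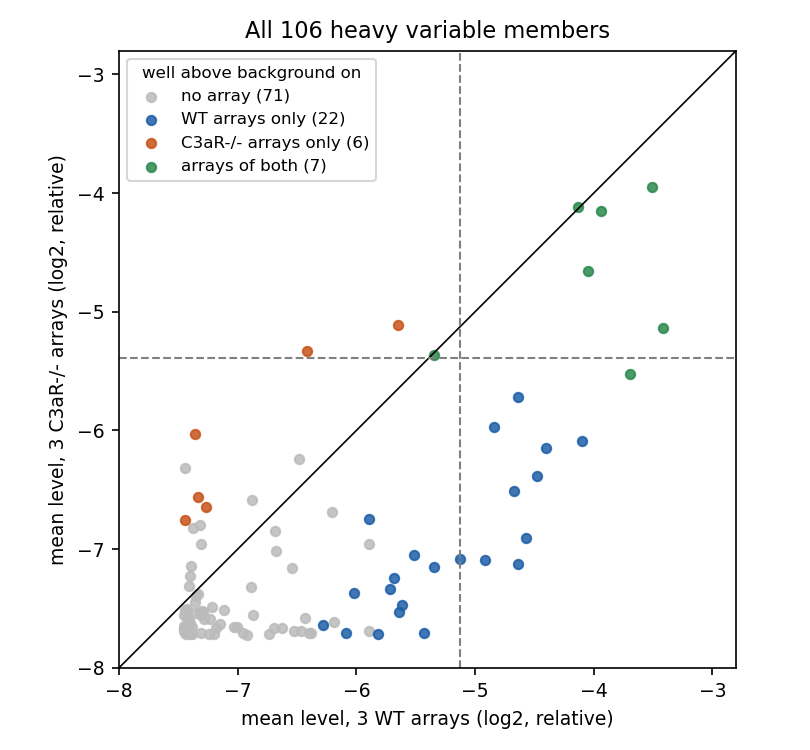
Mean level of each of the 106 members on the 3 WT arrays (horizontal axis) and the 3 C3aR-/- arrays (vertical axis), both log2 relative to the array's 75th percentile, coloured by the genotypes in which the member was well above background. Dashed lines are the mean lowest signal well above background of each genotype; of the 35 members detected anywhere, 22 were detected on WT arrays only and lie below the line of equality.

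Among the 98 members that were not tested, 20 were well above background on WT arrays only, 6 on C3aR-/- arrays only and 1 on both. The 5 with the highest level were all V1 genes that stood clear of background on 2 WT arrays and on no C3aR-/- array. Ighv1-81 read -4.10, -5.10 and -4.01 in WT and -6.08, -6.56 and -5.79 in C3aR-/- cortex, at least 1.99-fold higher in WT. Ighv1-64, which shares 29 bases with Ighv1-85, read -3.92, -5.12 and -4.38 in WT and -6.28, -5.83 and -7.03 in C3aR-/- cortex, at least 1.89-fold higher in WT. In both genes WT replicate 2 was the dim WT array.

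Ighv1-77 had WT levels of -4.17, -5.29 and -4.27 and C3aR-/- levels of -6.33, -6.64 and -7.74, a bound of at least 1.76-fold. Ighv1-83, which shares 45 bases with Ighv1-73, was the one of these 5 with overlap: WT replicate 2, at -5.32, lay below C3aR-/- replicate 1, at -5.21. Ighv1-2, a pseudogene by the RefSeq table, had WT levels of -3.85, -4.86 and -5.20 and C3aR-/- levels of -6.77, -7.40 and -7.20, a bound of at least 1.69-fold. These bounds carry no test. Of the 20 untested members seen on WT arrays only, 9 had a bound above 0 and 11 had none, because their WT mean lay under the C3aR-/- floor.

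Members seen on C3aR-/- arrays only came mostly from outside V1 and were seen on few arrays. They were named after their values were seen. Ighv5-2, the mapped member nearest the D segments, read -4.80, -5.99 and -5.19 in C3aR-/- and at most -6.05 on any WT array. The genotypes did not overlap, and it stood clear of background on 2 C3aR-/- arrays. Its C3aR-/- mean, -5.33, lay under the WT floor of -5.13, so it had no bound above 0. How many of all features lay without overlap in that direction is not given here. Ighv1-56, of V1, stood clear on C3aR-/- replicate 2 alone, at -4.30. Ighv2-6 and Ighv2-2 stood clear on C3aR-/- replicate 1 alone, at -4.30 and -4.76. Their values on the other arrays of both genotypes lay between -7.78 and -7.32.

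Single arrays decided other members as well. Ighv4-2 read -2.91 on C3aR-/- replicate 3, the brightest value of any member, and at most -7.32 elsewhere. Ighv7-1 read -3.43 on WT replicate 1 and at most -7.39 elsewhere. RefSeq lists both as pseudogenes. Ighv8-5 stood clear only on C3aR-/- replicate 2, at -5.00. Ighv9-2 stood clear on 1 WT and 2 C3aR-/- arrays, with means of -5.35 ± 0.38 (SD, n = 3) and -5.36 ± 0.11 (SD, n = 3).

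Fitted without a filter, all 106 members could be tested beside 56499 features, at the price of testing values that are mostly placeholders. In that fit 4 members were called lower, where 0.949% of all features were, and 0 were called higher, where 0.692% were. At an unadjusted p under 0.05, 49 members (46.2%) were lower and 2 higher, and 21.2% of all features were lower by the same measure. Placeholders alone can come out lower: the 26 members that held one on all 6 arrays had a median difference of -0.24. How many of all values are placeholders is not given here, so the 2 shares are not a like comparison and say little about measured levels. The share of all features that were higher is not given here, so the count of 2 has no comparison. The 4 were Ighv14-3 and Ighv1-4, which were also called with the filter, together with Ighv1-33 and Ighv1-36. Ighv1-52 and Ighv1-85 missed the threshold there, with limma adjusted p = 0.0556 and 0.0593.

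Ighv1-33, a pseudogene whose printed sequence runs past the end of the segment into the recombination heptamer, read -5.04, -5.23 and -4.48 in WT and -7.56, -6.86 and -6.87 in C3aR-/- cortex. It stood clear of background on 2 WT arrays, with a bound of at least 1.39-fold. Its feature maps beyond that of Ighv1-85, at the far end of the locus, and not between Ighv1-31 (1251 kb) and Ighv1-36 (1301 kb) as its number would place it. The name in the array files was kept, and it is in doubt whether name and position belong together. Ighv1-36 was well above background on no array.

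By subfamily, the tested members were 5 of V1 and 1 each of V5, V10 and V14. In V1, 3 of the 5 were called lower, and all 3 had passed the filter through the WT arrays alone, so that this count is set by the filter. The 2 V1 members that were clear of background on all 6 arrays, Ighv1-7 and Ighv1-11, were not called. The median log2 difference of the 5 was -1.83, or -0.72 with the members dim in C3aR-/- at their bound. In V14 the single tested member, clear of background on all 6 arrays, fell. The single tested members of V5 and V10 did not pass. No member of V6, V11, V12, V13, V15 or V16, and none of the 3 without a number, was well above background on any array. At least 1 member stood clear on some array for 23 of 49 in V1, 2 of 7 in V2, 1 of 7 in V3, 1 of 2 in V4 and 2 of 8 in V5. The counts were 1 of 4 in V7, 2 of 6 in V8, 1 of 4 in V9, 1 of 2 in V10 and 1 of 4 in V14.

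Placeholders made up 49.7% of the V1 values and 68.4% of the values of all other members, with the lowest shares in V10 (0%) and V5 (35.4%). The median GC content of the sequences was 45.0% for V1 and for the rest, and 45.0% for the members well above background on some array and for those on none.

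Along the locus V1 occupies the far part, from 890 kb to 2431 kb from the mapped member nearest the D segments, and position and subfamily therefore overlap. Of the 34 members nearest the D segments, none in V1, 2 were seen on WT arrays only and 4 on C3aR-/- arrays only. In the middle 34, with 19 V1 members, the counts were 5 and 0. In the far 35, with 30 V1 members and the feature named Ighv1-33 among them, they were 15 and 2. Of the V1 members, 7 of the 19 in the middle and 16 of the 30 in the far part stood clear on some array. Subfamily and position cannot be told apart here.

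**Figure D4:**
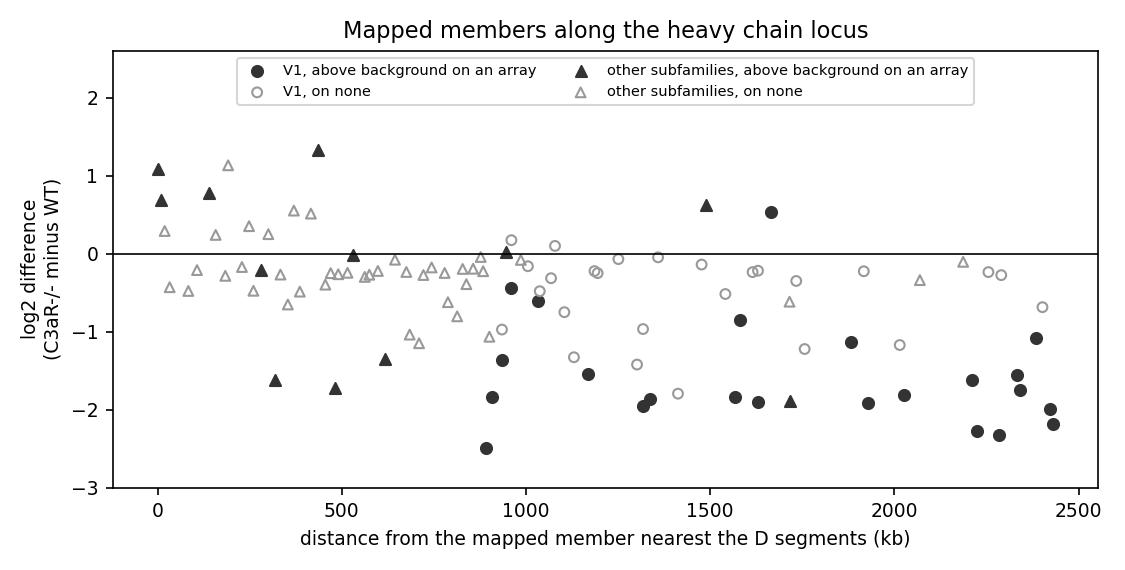
Log2 difference, C3aR-/- minus WT (vertical axis), of the 103 mapped members against distance in kb from the mapped member nearest the D segments (horizontal axis), circles for V1 and triangles for other subfamilies, filled where the member was well above background on some array. The filled circles start at 890 kb and all but Ighv1-56 lie below 0, and the filled triangles nearest the D segments lie above 0. Open symbols rest on placeholders or signals near background. Some filled symbols hold placeholders too, among them Ighv2-2 and Ighv2-6 near the D segments, with placeholders on 5 of the 6 arrays each.

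Both features of a gene gave a readable signal in none of the 5 genes with 2. The second Ighv1-7 feature was not well above background on any array. For Ighv1-37, Ighv1-5, Ighv1-55 and Ighv8-8, 1 feature stood clear on 1 or 2 WT arrays and the other on none. These genes were named after their values were seen, and the second features give no check of the first.

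Other antibody transcripts were read beside the members, with the same filter and the same limit on what a count of calls can say. Of 104 light chain variable features, 45 were tested, 32 were called lower and 0 higher, and 0 were higher by limma at an unadjusted p under 0.05. Of the 45, 33 had passed through the WT arrays alone. Their median log2 difference was -2.29, or -1.83 with the 12 that were dim on all C3aR-/- arrays at their bound. The 12 features that were well above background on all 6 arrays had a median of -1.59, and 7 of them were called lower. Igkv4-68, named in the array files as immunoglobulin kappa variable 4-68, stood at -2.30 ± 0.15 in WT and -4.71 ± 0.29 in C3aR-/- cortex (SD, n = 3 each), a difference of -2.41 (SE 0.16, limma adjusted p = 0.0031). The kappa variable 4-72 feature differed by -1.51 (limma adjusted p = 0.0045).

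The constant regions, to which an assembled variable segment is joined, gave 7 called lower and 0 higher of 14 tested out of 19 features, and a median of -1.32. By limma at an unadjusted p under 0.05 there were also 0 higher. The alpha constant region, that of IgA, was the brightest named here, at 5.76 ± 0.27 in WT and 3.08 ± 0.16 in C3aR-/- cortex (SD, n = 3 each), a difference of -2.68 (SE 0.16, limma adjusted p = 0.0025). A second alpha feature was well above background on no array. The 2 kappa constant features differed by -2.53 and -2.63 (limma adjusted p = 0.0031 and 0.0034). Of 3 features for gamma 2C, 2 were called lower, by -2.19 and -1.34. The feature at -2.19 had passed through the WT arrays alone and was clear of background on 1 C3aR-/- array, at -4.23, so the size of its difference rests on values near background. The first of these calls was lost without WT replicate 1, 2 or 3 or C3aR-/- replicate 3 (limma adjusted p from 0.0528 to 0.0632). The third differed by -0.68 and missed the threshold (limma adjusted p = 0.111). Summed on the linear scale relative to the array's 75th percentile, the 19 constant features came to at least 75.4 on every WT array and to 15.3 to 16.9 on the C3aR-/- arrays. The brighter alpha feature made up the largest part of that sum on every array, so the sum does not describe the 19 features alike. The sum over the 104 light chain variable features ranged from 5.26 to 7.83 in WT and from 2.07 to 2.12 in C3aR-/- cortex.

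**Figure D5:**
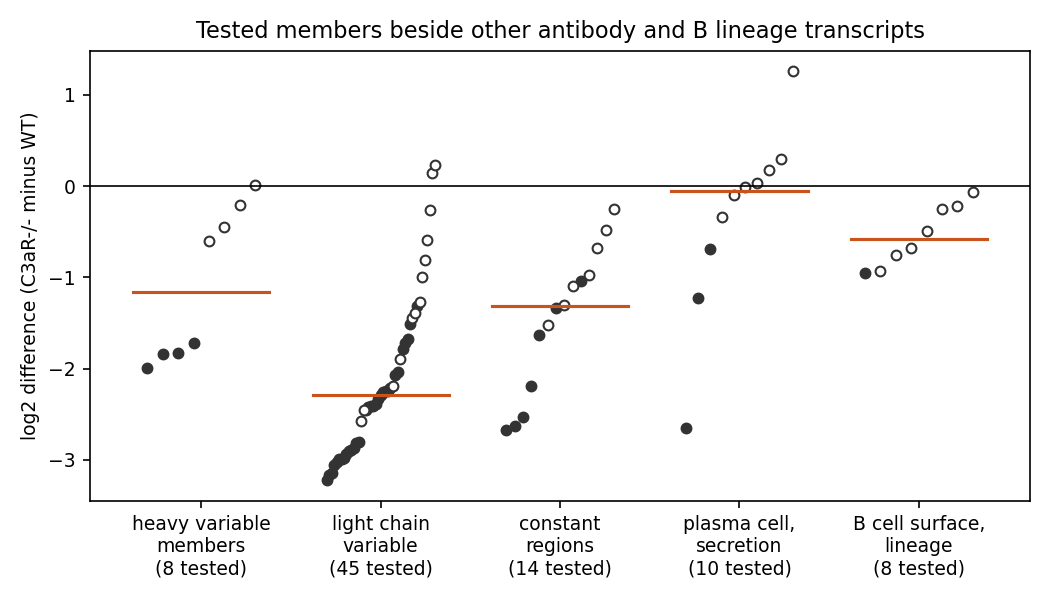
Log2 difference, C3aR-/- minus WT (vertical axis), of every tested feature or gene in 5 sets, in order of size within each set, with filled points called by limma at an adjusted p under 0.05 and an orange line at the set's median. The medians are -1.16 for the 8 heavy variable members, -2.29 for light chain variable, -1.32 for constant regions, -0.05 for plasma cell and secretion genes and -0.58 for B cell genes.

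Genes of antibody secretion moved with the members in part. Jchain, the chain that links IgA and IgM units, fell by 2.65 on the log2 scale (SE 0.20, limma adjusted p = 0.0037), Mzb1, a chaperone helper of plasma and marginal zone B cells, fell by 0.69 (limma adjusted p = 0.0241), and Pou2af1, a B cell transcriptional coactivator, fell by 1.23 (limma adjusted p = 0.0481). Pou2af1 had passed the filter through the WT arrays alone. It was clear of background on 2 C3aR-/- arrays, and the size of its fall rests on values near background. Jchain kept its call without any single array. Mzb1 lost its call without WT replicate 1 or 3 or any C3aR-/- array (adjusted p from 0.0513 to 0.0794), and Pou2af1 without any single array (0.0746 to 0.121). The other 7 tested genes of that list were not called. Derl3, an endoplasmic reticulum degradation factor, had a difference of 1.26 (limma adjusted p = 0.0731). The summed level of the list's 12 genes overlapped between genotypes, 85.5 to 94.1 in WT and 86.9 to 98.7 in C3aR-/- cortex. Xbp1 and Pigr, neither of them called, together made up the largest part of that sum on every array. The sum therefore does not describe the 12 genes alike, and its overlap says little about Jchain, Mzb1 or Pou2af1. Tnfrsf17 was well above background on no array.

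Of 14 B cell surface and lineage genes, 8 were tested and 1 was called: Spib, a B cell transcription factor, fell by 0.95 (limma adjusted p = 0.0391), and this call was lost without WT replicate 1 or 2 or any C3aR-/- array, with adjusted p from 0.0656 to 0.117. Spib had passed the filter through the WT arrays alone and was clear of background on 2 C3aR-/- arrays, so the size of its fall rests on values near background. Over all tested features 5.49% were called lower and 6.18% higher, and beside such shares 1 call among 8 says little about the list. Cd22 (-0.68) and Ms4a1 (-0.75), surface proteins of B cells, had limma adjusted p = 0.0660 and 0.283. Cd79a and Blk were well above background on no array. The summed level of the list was 1.95 to 2.70 in WT and 1.53 to 2.25 in C3aR-/- cortex. The part of B cell and plasma cell number in the members' levels was not tested.

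Among the genes that assemble and mutate variable segments, 4 of 8 were tested and Lig4, the ligase that seals the joint and also acts in general repair, fell by 0.30 (limma adjusted p = 0.0316). Rag1, Rag2 and Dntt, which act only while segments are being joined, are among the 4 that were not tested. Markers of other cells stand beside 5.49% of all tested features called lower and 6.18% called higher. Beside such shares, counts in lists this short do not set the antibody genes apart. No T cell gene was called by limma of 11 tested, no lymphoid stroma gene of 6 and no fat cell gene of 1. At an unadjusted p under 0.05 the counts were 0, 2 and 0, a measure for which no share over all features is given. With each array left out, T cell calls ranged from 0 to 1 and macrophage calls from 0 to 3. Of 9 macrophage genes Cd14 rose (0.41) and Cd68 fell (-0.58), with limma adjusted p = 0.0248 and 0.0272, and of 6 red cell genes Slc4a1 fell (-0.51, limma adjusted p = 0.0331). In the kidney lists Slc5a2 (0.34, limma adjusted p = 0.0405) and Wt1 (0.43, limma adjusted p = 0.0381) rose. Leaving out 1 array at a time took the adjusted p of these 6 genes past the threshold in every case but Cd68 without C3aR-/- replicate 2, and the highest value was 0.127.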

How the data were processed

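Each sample gave 0.2 µg of RNA for Cy3 labelling, per the labels' protocols, and per the submitters' processing notes the images were read with Agilent Feature Extraction 10.7.1.1. The deposited scanner files hold, per the file headers, a background-subtracted intensity for each spot (the processed signal) with its flags. A deposited table of log2 values, for which the sources used here give no normalisation, had nearly equal sorted values on all arrays (largest difference 0.0348) and a median of 5.38 on each, correlated with its own array at 0.995 to 0.996, and served as an alternative only. Positions are those of the array files (mm9).

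The log2 processed signal was taken relative to the 75th percentile of the transcript spots on its array, control and outlier-flagged spots were left out (106 features of the array, none of them a member), and spots of one feature were averaged. The number of arrays limits the precision. Genotypes were compared with limma 3.58.1 (lmFit, eBayes, two-sided) in R 4.3.3 over all 30931 features well above background on all arrays of a genotype. Every adjusted p in the text is from that fit (Benjamini-Hochberg), except where an alternative fit or a left-out array is named with it. Those values come from a limma fit of their own, adjusted over the features of that fit. For a bound, each array of the dim genotype was given the lowest signal that it measured as well above background, or the feature's own value where that was higher, and the mean was set against that of the bright genotype. Alternatives were background correction, scaling, filters, floor, feature choice, variance trend, the deposited table, a replicate block and each array left out.

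The members and the lists were chosen with earlier results of these data known. The members named were, among those called, up to 4 per subfamily by smallest p and the 10 largest changes each way. Added to these were the 5 highest levels in each genotype, the tested members above or closest to 0, and the 5 highest untested ones. Of each companion list up to 4 genes by smallest p were eligible, and the brightest feature stood for a gene. Others are said to be named after their values were seen. The constant region features beyond the 4 with the smallest p were also named after their values were seen.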

Additional observations from a re-analysis of the deposited data

How the results depend on the processing

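The 4 calls became 1 (Ighv14-3) among the 5 members well above background on all 6 arrays, and 2 with a replicate block. They ranged from 2 to 4 with each array left out, and were 4 in the other alternatives run. For V1 alone the 3 calls became 0 and 1 in those 2 fits and ranged from 1 to 3 with each array left out. The median over the tested members was -0.37 under normexp, -0.33 without a filter, -0.44 on members clear of background on all 6 arrays and -0.66 with low values set to the floor, and ranged from -1.84 to -0.68 with each array left out. Ighv14-3 was called in all 17 alternatives run. Ighv10-3 changed sign under normexp (-0.047) and ranged from -0.37 to 0.51 with each array left out, and Ighv1-7 ranged from -0.78 to 0.13. Calls in the B cell list fell from 1 to 0 under normexp, without a filter and on features clear of background on all 6 arrays (0 to 1 with each array left out). Plasma cell calls went from 3 to 1 with the replicate block (1 to 2 with each array left out). Constant region calls went from 7 to 3 without a filter, with the brightest feature per gene and with the replicate block (3 to 7). Light chain variable calls went from 32 to 19 without a filter and 7 on features clear of background on all 6 arrays (19 to 25). Over all features, 3612 calls became 927 without a filter, 594 with the replicate block and 598 to 1886 with each array left out. The deviations of arrays with the same number correlated at 0.04, 0.01 and -0.06, so the numbers were not taken as pairs. A fit with the slide as a block was not run, because each genotype lies on 1 slide of its own. Signal over background limits the results too: 71 of 106 members were well above background on no array.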
